A study of Larimichthys polyactis and Larimichthys crocea with 36 samples.

Results

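The 200 most abundant muscle-restricted gene identifiers (IDs) of 2 yellow croaker species and their hybrids are described here, out of 24212 IDs in the expression table. An ID belonged to the list when its name places it on 1 of 24 numbered chromosomes, when its mean over the 12 muscle libraries was at least 8 times its mean over the 12 brain libraries and at least 8 times its mean over the 12 liver libraries, and when its mean was at least 5 FPKM in muscle of both parental species. FPKM is the number of fragments of a transcript scaled by its length and by the library's total. Of the 21317 IDs with a chromosome number, 339 met these conditions, and the 200 with the highest muscle mean were taken (members below). Muscle, brain and liver values therefore chose the members, and their restriction to muscle is a description with no test. No condition compared the 4 kinds of fish, but the ranking used the mean over all 12 muscle libraries. A high level in 1 cross could thus carry an ID into the list, so differences between crosses are not free of the choice. Each parent also had to reach the minimum of 5 FPKM. Without that minimum all but 1 of the members would have been taken. The files do not pair the IDs with gene names, so IDs alone are printed and no function is given to any of them.

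Skeletal muscle is built from long multinucleate fibres packed with repeating contractile units. The thick filaments of these units are myosin, the thin filaments are actin with troponin and tropomyosin, and calcium released from an internal store starts contraction. In fish, most of the trunk muscle is fast white fibre that works largely on glycolysis, with a smaller layer of slow red fibre richer in mitochondria. Transcripts of contractile and calcium-handling proteins and of muscle energy enzymes are known to be among the most abundant in this tissue. Which members encode such proteins is not stated here, since no names were at hand.

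RNA was sequenced from brain, liver and muscle of 4 crosses: the hybrids LPC and LCP, the large yellow croaker Larimichthys crocea (LC) and the small yellow croaker Larimichthys polyactis (LP). There were 3 libraries in each of the 12 groups, 36 in all. The series title places the work in a study of hybrid growth. The labels do not say which species was the mother of either hybrid, give no age, sex, size or treatment of the fish, and do not tie a group's 3 libraries to 3 separate fish. The p-values below therefore measure only the scatter of these libraries, part of which may be technical. The tissue labels could not be set against named marker genes. No pair of libraries held identical values.

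The deposited values give no fragment counts, so the depth of each library is unknown. The FPKM of a muscle library summed to 722432 to 726993 in LPC, 704916 to 714166 in LCP, 788243 to 803344 in LC and 773497 to 821016 in LP. FPKM is relative to the library's own total, so when a few transcripts take more of a library, the values of the others are lower without any change in their own molecules. The members held 43.1% to 72.4% of a muscle library's sum, so this bears on every comparison below, and differences are given as deposited and after 4 other scalings.

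The members spanned a wide range of levels. Their mean over the 12 muscle libraries reached at least 10000 FPKM in 12 members, at least 1000 in 35 and at least 100 in 129, with a median of 153 FPKM. At the lower end, evm.model.Chr21.138 (46.6 FPKM) and evm.model.Chr13.802 (45.9) were the last taken, and evm.model.Chr15.63 (45.6) and evm.model.Chr17.728.1 (45.5) the first not taken. By the fold condition, evm.model.Chr21.809 (8.13 times the higher of the brain and liver means) and evm.model.Chr10.936 (8.17) lay just inside, while evm.model.Chr11.194 (7.997) and evm.model.Chr9.1199 (7.64) lay just outside. Muscle held 193 members at 1 FPKM or more in every one of its 12 libraries, and 170 at 10 FPKM or more. A further 718 IDs outside the list were at or above the muscle mean of the last member. These serve below as the other abundant IDs.

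The ratio of the muscle mean to the brain mean had a median of 222 over the members, and 123 members reached 100 or more. Against liver the median ratio was 1295, and 163 members reached 100 or more. In brain 90 members averaged under 1 FPKM and 2 were listed at 0 throughout, and in liver 138 averaged under 1 FPKM and 6 were listed at 0. These ratios follow from how the members were chosen.

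The most abundant member, evm.model.Chr1.830, was also the most abundant of all IDs in each of the 12 muscle libraries. It had 55003, 44610 and 54038 FPKM in LPC, 79318, 60538 and 59623 in LCP, 124157, 151637 and 114262 in LC, and 69967, 89257 and 100434 in LP. The 3 LPC libraries were the lowest and the 3 LC libraries the highest of the 12, and LCP overlapped LP through its first library. The difference between the 6 hybrid libraries and the mid-parent (the mean of LC and LP on the log2 scale) was -0.86 (SE 0.13, limma, Benjamini-Hochberg adjusted p = 0.000357).

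The next members in rank differed in spread. Levels of evm.model.Chr21.1163 were 32301, 29807 and 34310 FPKM in LPC, 40824, 19980 and 48135 in LCP, 43326, 71132 and 70949 in LC, and 49693, 58464 and 51423 in LP. Levels of evm.model.Chr21.197 were 30813, 32451 and 31989 FPKM in LPC, 33904, 34565 and 33491 in LCP, 53984, 56108 and 46272 in LC, and 42488, 46046 and 47156 in LP. Of these, evm.model.Chr21.197 had the smallest within-cross spread of the list, with a median coefficient of variation of 4.03% over the crosses, and its hybrid libraries lay below every parental one. Its log2 difference from the mid-parent was -0.56 (SE 0.09, limma adjusted p = 0.000595). After these came evm.model.Chr3.316, at 26572 ± 5231 FPKM in LPC, 30186 ± 1719 in LCP, 17166 ± 2923 in LC and 26516 ± 7222 in LP (SD, n = 3 per cross), and evm.model.Chr15.878, at 21635 ± 3257 in LPC, 24085 ± 7639 in LCP, 20887 ± 3942 in LC and 30556 ± 6991 in LP (SD, n = 3 per cross). In both, hybrid and parental libraries overlapped.

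Together the members held less of the muscle total in the hybrids than in the parents. The share of a library's FPKM sum was 49.2%, 43.1% and 46.0% in LPC, 54.4%, 54.6% and 49.4% in LCP, 69.2%, 72.4% and 62.8% in LC, and 54.7%, 59.5% and 58.3% in LP. Hybrid libraries ended at 54.6% and parental ones began at 54.7%, so the groups did not overlap but nearly touched, at LCP and LP. As a share of chromosome-numbered IDs only, they did overlap, with 66.1% in LCP 1 and 65.9% in LP 1. Group means were 46.1% ± 3.02 in LPC, 52.8% ± 2.93 in LCP, 68.1% ± 4.90 in LC and 57.5% ± 2.50 in LP (SD, n = 3 per cross). No test is given for the share, since the members were chosen on levels in these libraries. In bulk tissue, fewer cells of a type and less RNA per cell cannot be told apart.

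**Figure D1:**
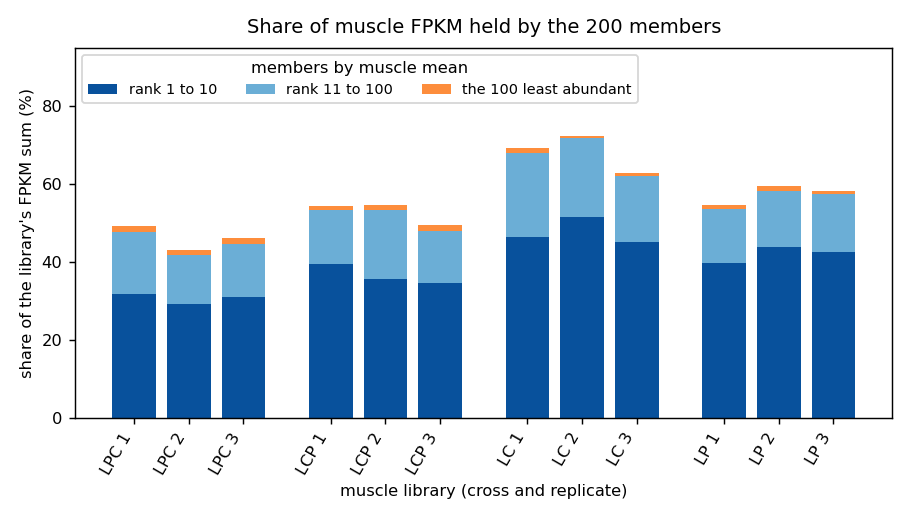
Share of each muscle library's FPKM sum held by the members, in percent, with 1 bar per library and colours for members ranked 1 to 10 and 11 to 100 by muscle mean and for the 100 least abundant. The full bars run from 43.1% to 54.6% in LPC and LCP and from 54.7% to 72.4% in LC and LP, and the top band is thin in every library.

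The 10 most abundant members carried most of this gap. They held 30.6% ± 1.36 in LPC, 36.5% ± 2.65 in LCP, 47.6% ± 3.43 in LC and 42.0% ± 2.17 in LP (SD, n = 3 per cross). From 4 to 6 members made up 50% of the members' sum in a library. By group means the 100 least abundant members went the other way. They held 1.38% ± 0.06 of the total in LPC, 1.28% ± 0.19 in LCP, 0.868% ± 0.290 in LC and 1.04% ± 0.26 in LP (SD, n = 3 per cross). Hybrid and parental libraries overlapped, as LCP 1, at 1.06%, lay below LC 1, LP 1 and LP 2. A ratio within a library does not depend on its total. The summed level of members 1 to 10 over that of the 100 least abundant was 21.99, 21.8 and 22.8 in LPC, 37.4, 26.2 and 24.3 in LCP, 38.6, 77.7 and 60.8 in LC, and 35.9, 34.7 and 56.5 in LP. LPC lay below all parental libraries on this ratio, and 1 LCP library lay among those of LP. Over members 11 to 100 instead, the ratio was 2.18 ± 0.17 in LPC, 2.47 ± 0.44 in LCP, 2.44 ± 0.26 in LC and 2.92 ± 0.12 in LP (SD, n = 3 per cross). On that ratio hybrid and parental libraries overlapped.

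Between the parental species, lower calls in LC outnumbered higher ones among the members as deposited, and the balance turned round after median-ratio scaling. As deposited, 17 members rose and 65 fell in LC relative to LP, and 118 were not called (limma on log2(FPKM + 1), Benjamini-Hochberg adjusted p under 0.05 over all 10847 IDs tested in muscle). Over all IDs tested, 3.05% were called higher and 48.5% lower. The members' median log2 difference was -0.43, against -0.64 over all IDs tested. After median-ratio scaling (each library divided by the median of its ratios to a common reference), 49 members rose and 13 fell, with a median of 0.50 for the members and -0.05 for all IDs, of which 10% were called higher and 11.3% lower. On all 5 scalings 9 members were called higher and 13 lower, against 2.91% and 10.5% of all IDs tested. Fold changes on this scale understate the change of low values.

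The members named here had the widest differences between the species among those called without overlap, and kept their calls on all 5 scalings. Levels of evm.model.Chr14.707 were 9687, 5092 and 1082 FPKM in LC and 19.1, 125 and 40.9 in LP. The LC libraries stood far above all LP libraries, and both hybrids, at 13.0, 17.0 and 19.9 FPKM in LPC and 25.6, 95.5 and 17.2 in LCP, lay near LP. Its log2 difference was 6.31 (SE 0.84, limma adjusted p = 0.000341). A like pattern was seen in evm.model.Chr17.402, with 1500, 639 and 876 FPKM in LC and 27.3, 23.6 and 71.1 in LP, against 28.1, 25.1 and 27.2 in LPC and 24.8, 47.5 and 40.9 in LCP. Its log2 difference between the species was 4.68 (SE 0.43, limma adjusted p = 3.34e-05), and no LC library overlapped another cross. Outside LC, most libraries of both members lay below 45.9 FPKM, the muscle mean of the last member. LC, where they are high, thus carried both into the list, so the choice favoured these differences and their p-values are a description only.

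In the other direction, evm.model.Chr4.1017 had 3.85, 7.2 and 44.6 FPKM in LC and 285, 254 and 176 in LP. All LC libraries lay below all LP libraries, and the hybrids lay at or above LP, with 882, 1392 and 1143 FPKM in LPC and 642, 262 and 1137 in LCP. The log2 difference between the species was -4.27 (SE 0.71, limma adjusted p = 0.000899). Levels of evm.model.Chr7.936 were 4.18, 85 and 2.05 FPKM in LC and 252, 250 and 139 in LP, again without overlap, with a log2 difference of -4.23 (SE 0.96, limma adjusted p = 0.00437). Hybrid levels were 593, 1012 and 901 FPKM in LPC and 540, 166 and 544 in LCP.

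Against the mid-parent, 6 of the 10 most abundant members were lower in hybrids as deposited, though 1 after quantile normalization, and the share called higher among the 100 least abundant lay near that of all IDs tested. As deposited 79 members were higher and 35 lower in hybrids, and 86 were not called. Over all IDs tested, 42.8% were called higher and 4.42% lower, against 39.5% and 17.5% of the members. The members' median log2 difference was 0.35 and that of all IDs 0.38. Among members ranked 1 to 10, 1 rose and 6 fell (median -0.67). Among those ranked 11 to 50, 13 rose and 13 fell (median 0.03). Among those ranked 51 to 100, 20 were higher and 6 lower (median 0.45), and among the 100 least abundant, 45 were higher and 10 lower (median 0.64). The 45% called higher among the 100 least abundant stands beside the 42.8% of all IDs. Of the 718 other abundant IDs, 427 rose and 17 fell (median 0.89).

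Median-ratio scaling moved all of these values down and kept their order. It gave 43 members higher and 50 lower, with a median of -0.08, against 0.10 over all IDs, of which 24.2% were called higher and 12.6% lower. The band medians became -1.11, -0.41, 0.01 and 0.21, going from the most to the least abundant. Among those ranked 51 to 100, 13 were then higher and 12 lower, and among the 100 least abundant 26% were higher, beside the 24.2% of all IDs. Quantile normalization, which gives every library the same set of values and so fixes the highest levels, did not keep the order, with band medians of 0.02, -0.10, -0.14 and -0.19. It called 2 of members 1 to 10 higher and 1 lower, against 15.2% and 16.6% of all IDs tested. On all 5 scalings 33 members were higher and 28 lower, against 13.9% and 4.31% of all IDs tested. Of members 1 to 10, 0 were higher and 1 was lower on all 5, and of the 100 least abundant, 17 were higher and 10 lower.

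**Figure D2:**
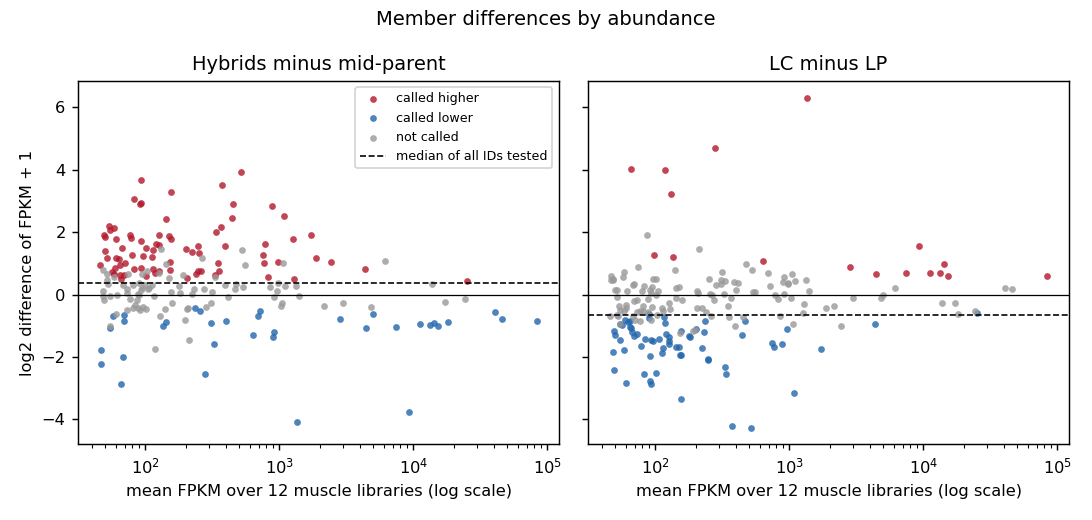
Log2 difference of FPKM + 1 for each member against its mean FPKM over the 12 muscle libraries on a log axis, for hybrids minus mid-parent and LC minus LP, as deposited. Colours mark members called higher or lower, and the dashed line marks the median of all IDs tested, 0.38 and -0.64. Most of the most abundant members lie below 0 in the hybrid panel, where the median of members 1 to 10 is -0.67.

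Among the members that were higher in the hybrids on every scaling, evm.model.Chr6.78 had 138, 329 and 271 FPKM in LPC and 280, 164 and 418 in LCP, against 4.91, 11.1 and 6.35 in LC and 97.4, 105 and 51.1 in LP. Every hybrid library lay above every parental one, and the parents did not overlap. The log2 difference from the mid-parent was 3.28 (SE 0.32, limma adjusted p = 7.65e-05). Levels of evm.model.Chr18.380 followed the same order, with 105, 151 and 141 FPKM in LPC and 115, 111 and 218 in LCP, against 3.23, 4.09 and 13.4 in LC and 61.1, 43.1 and 21.0 in LP. Its log2 difference was 3.07 (SE 0.35, limma adjusted p = 0.000141). Most of its parental libraries lay below 45.9 FPKM, the muscle mean of the last member. The hybrids, where it is high, thus carried it into the list, and its p-value is a description only.

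The lowest in the hybrids relative to the mid-parent was evm.model.Chr20.45 among the members whose libraries did not overlap. It had 1338, 879 and 1093 FPKM in LPC and 1270, 1113 and 471 in LCP, against 24829, 39779 and 11944 in LC and 2806, 14326 and 11639 in LP. All hybrid libraries lay below all parental ones, and the first LP library lay apart from the other LP libraries. Its log2 difference was -3.77 (SE 0.43, limma adjusted p = 0.000140). Levels of evm.model.Chr21.138, the member next to last in abundance, were 26.0, 17.2 and 18.9 FPKM in LPC and 7.73, 9.44 and 9.93 in LCP, against 70.9, 184 and 43.0 in LC and 40.8, 84.0 and 46.9 in LP. Its log2 difference was -2.22 (SE 0.32, limma adjusted p = 0.000316), again with no overlap. All its hybrid libraries lay below 45.9 FPKM, the muscle mean of the last member. The parents, where it is high, thus carried it into the list, and its p-value is a description only.

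**Figure D3:**
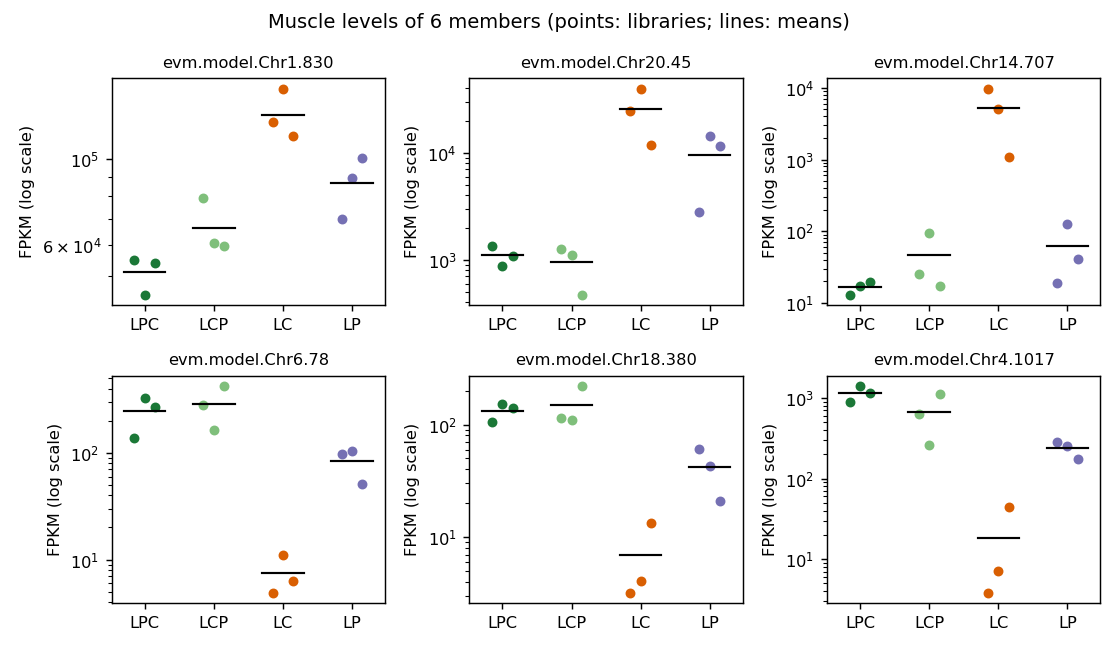
Muscle FPKM on log axes of 6 members in LPC, LCP, LC and LP, with 1 point per library (n = 3 per cross) and a line at the mean. Hybrid and parental points are apart for evm.model.Chr20.45, evm.model.Chr6.78 and evm.model.Chr18.380, LC stands alone for evm.model.Chr14.707 and evm.model.Chr4.1017, and the crosses lie closest for evm.model.Chr1.830.

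Each hybrid was also set against each parent. Against LC, 79 members were higher and 33 lower in LPC (61.2% and 2.23% of all IDs tested), and 80 were higher and 26 lower in LCP (39.5% and 3.10%). Against LP, 22 were higher and 20 lower in LPC (13.8% and 2.93%), and 18 were higher and 14 lower in LCP (5.92% and 10.1%). The LP counts rest on single libraries: without LPC 2, LPC 3 or LP 3, the LPC total of 42 became 13, 13 or 18, and without LPC 3 (which enters the shared spread), LCP 3, LP 2 or LP 3, the LCP total of 32 became 20, 13, 13 or 17. The balance of sides also moved with the scaling. After median-ratio scaling, 28 members were higher and 66 lower in LPC against LC (20.4% and 12.1% of all IDs tested), and 47 were higher and 40 lower in LCP against LC (20.3% and 11%). Against LP, 16 were then higher and 23 lower in LPC (8.53% and 4.11%), and 35 were higher and 6 lower in LCP (12.1% and 6.79%). Lower calls thus outnumbered higher ones in LPC after that scaling, against either parent, and the reverse held as deposited. The members' median in LPC minus LC was -0.51 after median-ratio scaling and 0.62 as deposited. These comparisons share libraries and are not independent.

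Members called outside both parents were fewer. In LPC 21 members lay above both parents and 14 below both (12.2% and 0.433% of all IDs tested). In LCP 16 lay above both and 9 below both (4.48% and 1.08%). After median-ratio scaling the counts were 12 above and 19 below in LPC (5.24% and 1.51%) and 23 above and 4 below in LCP (6.34% and 2.50%), so the balance of sides moved with the scaling and is not read as a direction. As deposited, 0 members lay between the parents with both differences called.

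Single members showed how the hybrids departed from 1 parent. In LPC evm.model.Chr24.498 had 733, 1073 and 983 FPKM, against 91.7, 153 and 106 in LP, a log2 difference of 2.996 (SE 0.49, limma adjusted p = 0.00340). In LCP evm.model.Chr20.253 had 329, 1335 and 1531 FPKM, against 88.2, 136 and 129 in LP, a log2 difference of 2.91 (SE 0.63, limma adjusted p = 0.0128). Neither pair of groups overlapped. Calls for evm.model.Chr21.414 in LPC (log2 difference from LP 3.53, SE 0.97, limma adjusted p = 0.0293) and evm.model.Chr3.473 in LCP (2.49, SE 0.77, limma adjusted p = 0.0462) were each lost under several other settings, with adjusted p up to 0.0902 and 0.151.

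Between the 2 hybrids 1 member was called. In LPC against LCP 0 members were higher and 1 lower (limma), against 4.36% and 0.415% of all IDs tested at the same adjusted threshold. At an unadjusted limma p under 0.05, 15 were higher and 10 lower, and the matching share of all IDs is not given. The median log2 difference was -0.04 over the members and 0.33 over all IDs. After median-ratio scaling the members' median was -0.52, with 0 higher and 1 lower (0.535% and 0.802% of all IDs tested). The member called was evm.model.Chr12.994, with 29.8, 13.7 and 18.8 FPKM in LPC and 41.8, 53.1 and 46.8 in LCP. The hybrids did not overlap, and the log2 difference was -1.21 (SE 0.28, limma adjusted p = 0.0352). The parents had 37.9, 40.8 and 37.5 FPKM in LC and 104, 129 and 95.1 in LP. The call did not hold on all 5 scalings: the limma adjusted p was 0.0276 after median-ratio scaling, but 0.0724 after quantile normalization, 0.0578 with median-ratio scaling over the members and 0.0608 scaled to the total without the members. It was also lost with log2(FPKM + 0.1) (0.0501), with no filter on low values (0.0528), and without LPC 2, LPC 3, LCP 1 or LCP 2 (0.165, 0.148, 0.0708 and 0.0985).

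Members also differed in how tightly the 3 libraries of a cross agreed. The median coefficient of variation over the members was 14.67% in LPC, 30.5% in LCP, 35.1% in LC and 28.0% in LP, close to the 13.7%, 25.8%, 33.0% and 26.6% of the other abundant IDs. The ranking of members by level had a median Spearman correlation across the members of 0.950 between libraries of LPC, 0.859 within LCP, 0.790 within LC and 0.858 within LP. Between crosses it was 0.879 for LPC with LCP, above the values within LCP, LC and LP. It was 0.812 for LPC with LP, 0.815 for LCP with LP, 0.658 for LPC with LC, 0.706 for LCP with LC and 0.732 for LC with LP. Genes are not independent replicates, and these are descriptions.

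The largest spread belonged to evm.model.Chr4.817, which had 116, 36.8 and 54.4 FPKM in LPC, 1.08, 101.5 and 12.6 in LCP, 569, 15.7 and 27.2 in LC, and 10.2, 93.2 and 3.95 in LP. It varied more within crosses than between them. Chosen after these values were seen, the members whose deviations from the cross means followed those of evm.model.Chr4.817 with a Pearson correlation above 0.8 over the 12 libraries numbered 14, or 7.04% of the other members, and 176 of 10647 other IDs tested (1.65%) met the same condition. Of the 14, 13 exceeded 0.9. With evm.model.Chr4.817 itself they make a set of 15, ranked between 33 and 192 by abundance. All 15 were highest in the same library of each cross, namely LPC 1, LCP 2, LC 1 and LP 2. All 15 were lowest in LCP 1 within that cross. Since the set was chosen for deviations like those of evm.model.Chr4.817, these shared libraries largely follow from the choice and are a description only.

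The 15 covered a wide range within a cross. The median ratio of the highest to the lowest library was 2.46 in LPC, 65.3 in LCP, 33.1 in LC and 146 in LP, against 1.27, 1.76, 1.79 and 1.65 for the other members. Their summed level was 4047, 2029 and 2571 FPKM in LPC, 373, 3174 and 1291 in LCP, 5702, 698 and 746 in LC, and 1817, 5770 and 761 in LP. LPC was the evenest cross, and single libraries of the other crosses set their means. Of the 24 members that varied 10-fold or more within some cross, 13 were in this set, and none did so in LPC. What these libraries had in common was not tested.

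**Figure D4:**
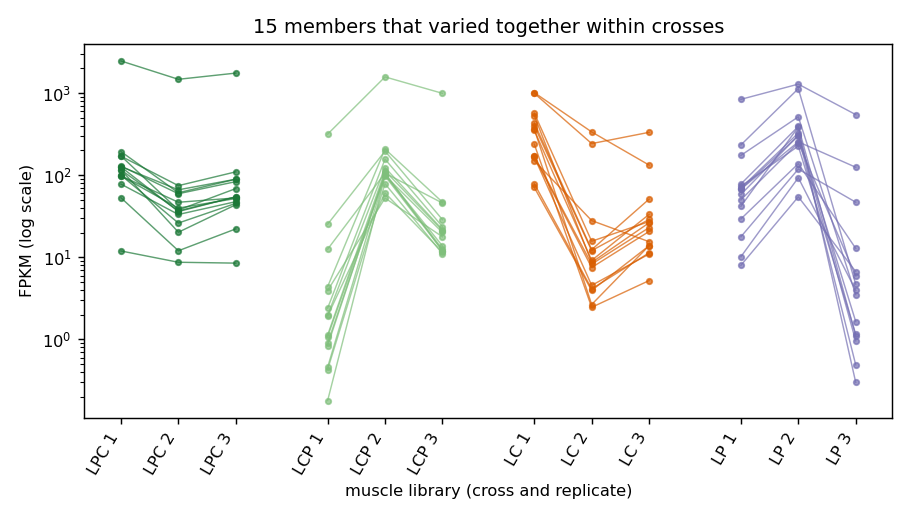
FPKM on a log axis of the 15 members that varied together within crosses, in the 12 muscle libraries, with lines joining the values of 1 ID within a cross (replicates have no order). All 15 peak in LPC 1, LCP 2, LC 1 and LP 2, which largely follows from how they were chosen. The median ratio of highest to lowest library runs from 2.46 in LPC to 146 in LP.

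Over the 12 muscle libraries, the level of the most abundant member ran closely with some members and against others. The log2 levels of evm.model.Chr24.577 and evm.model.Chr12.524 had Pearson correlations of 0.96 and 0.95 with evm.model.Chr1.830, and evm.model.Chr11.859 and evm.model.Chr23.5 had -0.96 and -0.95. In LC evm.model.Chr24.577 had 18461, 19141 and 17849 FPKM, against 8832, 13352 and 12450 in LP, with 7332, 6934 and 7310 in LPC and 8664, 8332 and 6629 in LCP. In LC evm.model.Chr11.859 had 62.5, 65.7 and 127 FPKM, against 334, 192 and 126 in LP, with 690, 893 and 954 in LPC and 401, 493 and 960 in LCP. Of the other members, 36 had a correlation above 0.5 and 86 one below -0.5. The matching shares of all IDs were not computed, so these counts are not read as a trait of the members. These points share library totals and cross means, so the values describe likeness only.

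The members could still be read at low levels outside muscle, and a few libraries stood apart. In brain the median member was at 1.22, 3.41 and 0.82 FPKM in LPC, 0.435, 0.93 and 0.81 in LCP, 0.365, 0.91 and 0.815 in LC, and 0.39, 1.92 and 0.38 in LP. LPC 2 and LP 2 were the highest. The brain library LPC 2 was the highest of the 12 for 87 of 198 members (43.9%), against 9.95% of the other IDs. For LP 2 the share was 14.6% of the members, against 13.3% of the other IDs. The members' levels in these 2 brain libraries correlated with those in muscle of the same cross at 0.66 and 0.60 on the log2 scale, as a description over IDs. This was not particular to them: LPC 1, LCP 2, LCP 3 and LC 3 gave 0.56, 0.50, 0.46 and 0.45, and the other brain libraries 0.15 to 0.35. By Spearman correlation LP 2 (0.48) lay below LPC 1 (0.52) and LCP 2 (0.50). In liver LCP 3 was the highest of the 12 for 56 of 194 members (28.9%), against 4.44% of the other IDs. Most of these liver values are low. By summed member level, liver LCP 3 (597 FPKM) and LPC 3 (629) lay below every parental liver library, the lowest of which had 662. Leaving out both brain libraries changed no member of the list. How muscle transcripts came to be read in them was not tested.

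**Figure D5:**
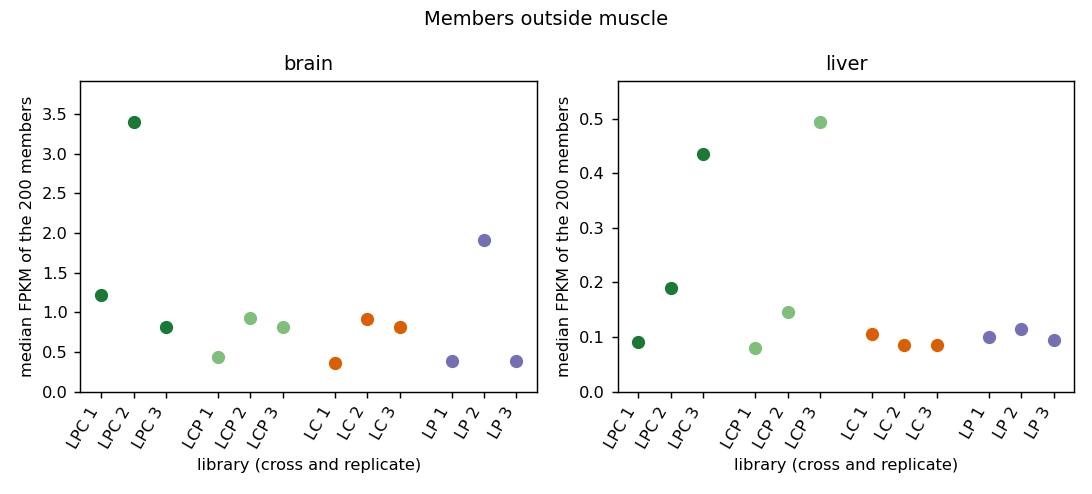
Median FPKM of the 200 members in each brain and liver library, with separate vertical scales from 0. Brain LPC 2 (3.41) and LP 2 (1.92) and liver LCP 3 (0.495) and LPC 3 (0.435) lie above the other libraries of their tissue. By summed level, liver LCP 3 and LPC 3 lie below every parental liver library.

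A handful of members reached high levels outside muscle. In single brain libraries evm.model.Chr24.577 reached 297 FPKM, with a lowest of 82.6, and evm.model.Chr21.1163 reached 235, with a lowest of 0.60. Both peaked in LPC 2. In liver evm.model.Chr20.590 reached 278 FPKM, with a lowest of 53.0, and evm.model.Chr23.800 reached 131, with a lowest of 14.96. In muscle, evm.model.Chr20.590 averaged 1087 and evm.model.Chr23.800 averaged 1096 FPKM over the 12 libraries. Muscle levels of evm.model.Chr20.590 ran from 42.0 to 2552 FPKM, so its lowest muscle library lay below its lowest liver library.

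In brain 113 members and in liver 70 reached 1 FPKM in at least 3 libraries and were tested. A member could enter through the libraries where it was high, so these counts describe the members tested only. In brain 1 member rose and 2 fell in LC relative to LP (limma; 1.68% and 1.74% of all IDs tested). In hybrids against the mid-parent 0 were called (0.0390% and 0.0112% of all IDs), as in LPC against LCP (0.00% and 0.00%). At an unadjusted limma p under 0.05, 4 were higher and 1 lower in hybrids, and 8 and 1 in LPC against LCP. The percentages here are all at the adjusted threshold, and the unadjusted shares of all IDs are not given. The brain count between the species was 0 without LCP 3, LC 1, LC 2, LC 3, LP 1 or LP 3, each left out alone, and 1 without LPC 2. In liver 4 rose and 6 fell in LC relative to LP (8.07% and 7.52%), and 1 was higher and 22 lower in hybrids (2.64% and 29.9%). After median-ratio scaling the liver hybrid total of 23 was 7, and without LC 1 or LP 3 it was 15 or 14. The matching shares of all IDs are not given. In LPC against LCP 0 were called in liver (limma; 0.191% and 0.0478% of all IDs at the same adjusted threshold). Unadjusted, 9 were higher and 0 lower, with no matching share of all IDs given.

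The differences in muscle were set against those in liver for the 70 members tested in both. This was done in 1 fit over all 36 libraries, which did not pair libraries by number. The difference from the mid-parent was higher in muscle than in liver for 31 members and lower for 6 (59.2% and 0.787% of the 9148 IDs tested). For LC minus LP it was higher in muscle for 5 and lower for 18 (1.1% and 32.8%). After median-ratio scaling these counts were 15 and 14 for the hybrids (14.5% and 3.28% of all IDs tested) and 8 and 4 for the species (2.80% and 4.69%), so the balance of sides moved with the scaling here too.

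Chosen among the members called in opposite directions in the 2 tissues, evm.model.Chr4.725 showed the widest contrast. In muscle it had 1222, 1614 and 1552 FPKM in LPC and 1257, 768 and 2687 in LCP, against 71.4, 116 and 173 in LC and 534, 426 and 176 in LP. In liver it had 1.48, 2.14 and 0.67 FPKM in LPC and 0.92, 3.66 and 1.62 in LCP, against 27.2, 53.5 and 5.70 in LC and 0.85, 1.29 and 2.34 in LP. LC was the lowest cross in muscle and the highest in liver, and the hybrids were the highest in muscle. The difference between the tissues was 4.32 for the hybrids (SE 0.56, limma adjusted p = 7.23e-07) and -4.76 for LC minus LP (SE 0.80, limma adjusted p = 9.12e-05). This fit did not pair libraries by number. With each muscle library set against the liver library of its number, the limma adjusted p was 0.000166 for the hybrids and 0.00257 for the species. That paired fit also used variances without a trend, so the 2 fits differ in more than the pairing.

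Some members carry consecutive numbers in their IDs. There were 9 such pairs with 17 members (8.5%), against 21.5% of the 200 most abundant liver-restricted IDs and 2% of the brain-restricted IDs chosen the same way. Pairs were alike in level across the 12 muscle libraries in some cases, with log2 correlations of 0.98 for evm.model.Chr7.798 and evm.model.Chr7.799, 0.98 for evm.model.Chr7.935 and evm.model.Chr7.936 and 0.95 for evm.model.Chr3.1121 and evm.model.Chr3.1122, and not in others, down to -0.56 for evm.model.Chr20.520 and evm.model.Chr20.521. Near-identical neighbouring copies could share fragments, and how the authors' quantification treated these is not given in the sources used here. Chromosome numbers 21 and 20 held the most members, 16 of 986 IDs (1.62%) and 14 of 871 (1.61%). Number 23 held 10 of 675 (1.48%).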

How the data were processed

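RNA was sequenced from brain, liver and muscle of 4 crosses, with 3 libraries per group. The values are FPKM as deposited by the authors, in 1 table with a column for each library. Reads passed through fastp, per the submitters' processing notes. Not given in the sources used here are the aligner, quantifier, genome build and annotation. Poly(A) RNA was selected and cDNA primed with random hexamers, per the labels' protocols. Columns were mapped to libraries by name.

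The members and lists were chosen with earlier results of these data known. Differences came from limma 3.58.1 (R 4.3.3), fitted within a tissue to log2(FPKM + 1) with 1 mean per cross and trended variances. Tests were 2-sided, with Benjamini-Hochberg adjustment over all IDs with at least 1 FPKM in at least 3 of 12 libraries. All 200 members passed this in muscle, 113 in brain and 70 in liver. A difference was called at an adjusted p under 0.05. Differences between muscle and liver came from 1 fit over all 36 libraries. The fit that paired muscle with liver by number used variances without a trend. Levels were summarised with Python 3.11.15 and pandas 2.3.3. The fit was tested on simulated data in which a small part of the IDs differed in 1 cross. That test does not bear on the choice of scaling.

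IDs were named by rule: the 5 most abundant, those at the cut, the 2 highest and 2 lowest called per comparison whose libraries did not overlap, the extremes of spread, the highest outside muscle and those most like the first member. The 15 co-varying members, the 2 members most unlike the first, the IDs at the fold condition, evm.model.Chr4.725 and the ID pairs were named after their values were seen. Library depth is unknown, so no counting intervals are given. Marker lists by gene symbol were not used.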

Additional observations from a re-analysis of the deposited data

Results flagged for a closer look

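Differences between muscle and liver were picked out by a test of the difference itself, in 1 limma fit over all 36 libraries. This fit did not pair libraries by number, and counts with that pairing are given in the next section. For hybrids minus mid-parent, the difference was higher in muscle than in liver for 31 members and lower for 6 (59.2% and 0.787% of the 9148 IDs tested). For LC minus LP, muscle gave the higher value in 5 members and the lower in 18 (1.1% and 32.8% of those IDs). After median-ratio scaling the counts were 15 and 14 for the hybrids and 8 and 4 for the species. Among the members called in opposite directions in the 2 tissues, evm.model.Chr4.725 was the widest, at 4.32 for the hybrids and -4.76 for the species. Next came evm.model.Chr6.78, at 3.98 for the hybrids, and evm.model.Chr9.1208, at -3.09 for the species. These values are on the log2 scale, as muscle minus liver. Members called in opposite directions numbered 13 for the hybrids and 2 for the species, these IDs among them. The share of all IDs with opposite calls was not computed, so these counts are not read as a result about the members. Over all IDs tested in each tissue, 42.8% were called higher in hybrid muscle and 29.9% lower in hybrid liver.

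In muscle, evm.model.Chr12.994 was the 1 member whose departure from the mid-parent differed between the hybrids, by -1.21 in LPC minus LCP (limma adjusted p = 0.0352). The call was lost on 3 of the other 4 scalings, with a limma adjusted p of 0.0578 to 0.0724, and without LPC 2, LPC 3, LCP 1 or LCP 2.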

How the results depend on the processing

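For LC minus LP and for hybrids minus mid-parent, counts of called members moved more with the scaling than with 1 library. For LC minus LP, the 17 higher became 49 with median-ratio scaling, 31 with that scaling over the members, 10 with no filter on low values and 11 in 1 fit over 36 libraries, and the 65 lower became 13 and 21 with both median-ratio scalings, 24 with quantile normalization and 35 scaled to the total without the members. In hybrids the 79 higher became 43, 43, 44 and 48 (median-ratio, quantile, median-ratio over members, total without members), and the 35 lower became 53 with quantile normalization. Over all IDs tested, the 42.8% higher became 24.2%, 15.2%, 20.3% and 26.0%, and the 4.42% lower became 16.6% with quantile normalization. The fit over 36 libraries called 9 higher and 4 lower in LPC against LCP. With no filter the LPC minus LP total was 24. Counts in this section with no share of all IDs beside them are not read as results about the members. The totals against LP moved more with 1 library than with the scaling, which gave 34 to 50 for LPC and 27 to 41 for LCP. In liver the hybrid total was 7 after median-ratio scaling, and the muscle and liver differences were 15 higher and 14 lower for hybrids and 8 and 4 for the species. Over chromosome-numbered IDs only, the members' share was 55.4% in LPC, 62.4% in LCP, 76.9% in LC and 68.0% in LP, and LCP 1 lay above LP 1. Without the 10 most abundant members the share of the full sum was 15.5%, 16.3%, 20.52% and 15.4%, where LP no longer exceeded the hybrids. The highest library over the median, by median member level, was 4.17 in brain and 4.83 in liver. By summed member level the spread was smaller. The highest brain library had 2919 FPKM against a median of 1328, and the highest liver library, LC 1, had 882 against 646. With no parent minimum 601 IDs passed the rule, and taking 100 kept 100 by construction. Of the 200 members, 172 were kept with a fold of 4, 169 with a fold of 16 and 183 with tissue medians in place of means.

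Leaving out 1 library at a time gave 12 to 18 higher and 51 to 66 lower for LC minus LP, 69 to 77 and 30 to 40 for hybrids, and 0 to 3 and 0 to 2 for LPC minus LCP, with the highest of both without LCP 3. Totals were 13 to 46 for LPC minus LP, 93 to 117 for LPC minus LC, 13 to 37 for LCP minus LP and 89 to 106 for LCP minus LC. They were 0 to 3 for LC minus LP in brain, 8 to 12 in liver, and 14 to 23 for hybrids in liver. Between muscle and liver they were 28 to 32 higher and 3 to 8 lower for hybrids (3 without liver LPC 3 or LCP 3), and 4 to 5 and 13 to 19 for the species. Of 525 values for single members under all alternatives, 493 kept their call, 32 lost it and 0 changed sign. The 32 belonged to evm.model.Chr12.994, evm.model.Chr21.414 and evm.model.Chr3.473. Muscle libraries of different crosses with the same number did not deviate together (18 pairs, correlations of -0.22 to 0.17, 4 above 0.1). Within a cross, libraries of different tissues with the same number mostly did, as a hint from the data: muscle with liver at 0.0173 to 0.322, muscle with brain at 0.0217 to 0.232 and liver with brain at 0.0994 to 0.320, in each case 11 of 12 pairs above 0.1, and 11 of 12 muscle libraries correlated best with the liver library of their own number. The same held for 11 of 12 muscle libraries with brain and for 12 of 12 liver libraries with brain. As not every pair exceeded 0.1, the main fits did not use the numbers as pairing. These values leave a pairing possible, and fits that ignore it may misstate the p-values of differences between tissues. With the replicate number as a block, 16 members were higher and 59 lower for LC minus LP, 74 and 34 for hybrids, and 0 and 0 for LPC minus LCP. With cross and number as a block, and without trended variances, the muscle and liver differences were 33 higher and 14 lower for hybrids and 5 and 23 for the species. The share of all IDs called was not computed for that fit, so these counts are not read as a result about the members. The brain, liver and tissue-difference alternatives were chosen after seeing the data. Apart from the alternatives' own construction, the cause of these shifts was not tested. Depth is unknown and limits what can be said of low values.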
